A study of Rattus norvegicus with 12 samples.

Results

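The genes described here encode collagens, the proteins of elastic fibres and fibronectin, and the enzymes that fold and crosslink them, in cultured smooth muscle cells of the rat aorta. A gene was included when at least 1 probe set of the array carries its symbol alone and the symbol is that of a collagen chain or 1 of 20 listed matrix genes. This gave 61 genes, 41 collagen chains and 20 others, of 14217 genes with a probe set of their own. Each gene is represented by the brightest of its probe sets over all arrays, and 21 genes have more than 1 (85 probe sets in all). Of the 61 genes, 40 were bright enough to be tested.

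Transcripts were measured with Affymetrix arrays in primary smooth muscle cell cultures from newborn rat aortas, grown in 10% FCS and starved of serum overnight in medium with 1% BSA. The 12 arrays make 3 experiments, each with 2 arrays of unstimulated cells and 2 of cells stimulated for 120 min. The thrombin experiment used thrombin at 2 U/ml, the clotting protease that activates its receptors by cutting them. The TRAP experiment used TRAP at 25 µM, a peptide that activates a thrombin receptor without the protease. In the third, called the PTX experiment here, cells received TRAP at 25 µM after 24 h with 200 ng/ml pertussis toxin (PTX), which uncouples receptors from Gi proteins. The unstimulated arrays of the PTX experiment carry no agent in the labels, which leaves it unstated if PTX was present before TRAP was added. The labels number the replicates without saying that they came from separate cultures or animals, so p-values measure the spread between these arrays. By its title and design, the study asks which transcripts thrombin receptors change within a short time and what part of that goes through Gi.

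Smooth muscle cells make most of the extracellular matrix of the aortic wall. Fibrillar collagens bear tension, network collagens such as those of the basement membrane surround the cell, and microfibrils of fibrillin carry elastin, so that the wall recoils after each heartbeat. Collagen chains are hydroxylated on proline and lysine and folded with the help of a chaperone in the endoplasmic reticulum. Lysyl oxidases then crosslink collagen and elastin outside the cell. Latent TGF-beta binding proteins tie this matrix to TGF-beta, the growth factor best known for raising matrix production.

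The signals are linear intensities, scaled on each array to a trimmed mean of about 200, with medians from 39.5 to 53.4. Replicate arrays correlated at 0.983 to 0.991 over the tested probe sets, while arrays of the thrombin experiment correlated at 0.913 to 0.941 with those of the other experiments. Among the 8 arrays of the TRAP and PTX experiments, 4 had high levels of the acute-phase gene Saa3 (222.5 to 420.9) and low levels of the proliferation gene Mki67 (515.4 to 607.5). The other 4 had Saa3 at 15.9 to 22.8 and Mki67 at 900.3 to 1095.7. All unstimulated TRAP arrays were in the set low in Saa3 and all unstimulated PTX arrays in the set high in Saa3, but replicate 1 of TRAP and replicate 1 of TRAP after PTX were in the set opposite to their own controls. Both sets come from the values and not from the labels. Exchanged labels and a batch of cultures cannot be told apart here, so each change after TRAP or TRAP after PTX holds for the arrays as labelled. Smooth muscle markers were present on all arrays (summed signal of 12 genes 16528.2 to 31180.1), the summed signal of 9 endothelial markers stayed at or below 171.1, and no marker was at 0 on any array.

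The members that were not tested were near the lower limit of the arrays. The limit was a mean log2(signal + 16) of 5.27, which is a signal of 22.7. Just above it were Col9a2, with a mean signal of 26.8, and Col23a1 with 27.5, and just below it Col22a1 and Col2a1, both with 19.6. The 21 dim genes include the cartilage chains Col2a1, Col11a2, Col9a1, Col9a3 and Col10a1, the basement membrane chains Col4a4 and Col4a6, and Col6a3, Col6a5 and Col6a6 of the type VI family. The remaining dim collagens were Col7a1, Col13a1, Col17a1, Col19a1, Col20a1, Col22a1, Col24a1, Col25a1 and Col26a1. Eln, which encodes elastin itself, was also dim: its signal ran from 8 to 23.4 over the 12 arrays. Its values were 22.2 and 13.5 in unstimulated cells of the thrombin experiment, 8 and 19.3 in the TRAP experiment and 17.5 and 15.8 in the PTX experiment. After stimulation they were 11.5 and 19.5, 10.8 and 10.2 and 9.6 and 23.4, so groups overlap throughout. A further Eln probe set read 1.2 to 4.7. Fbln1, a fibulin of elastic tissue, ran from 2 to 29.5. A dim probe set may reflect a weak probe as well as a low transcript, so no level of elastin mRNA is given.

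Unstimulated cells of the thrombin experiment differed from unstimulated cells of the other experiments in most of these genes, with log2 differences from -2.94 to 1.44, while changes after stimulation ran from -0.61 to 0.58. Among the tested members, transcripts of microfibril and elastic fibre proteins and of type VI collagen were lower in the thrombin experiment. Ltbp2, Ltbp1, Col6a1 and Col6a2 were each at least 4-fold lower there. A few collagen chains, led by Col14a1 and Col8a2, were higher there. The comparison set the 2 unstimulated arrays of the thrombin experiment against the mean of the TRAP and PTX groups (limma, adjusted over all 18625 tested probe sets, threshold 0.05). It called 28 of the 40 tested members (70%), 8 higher and 20 lower, against 46.4% of all tested probe sets (21.6% higher and 24.9% lower). The median difference of the members was -0.27 on the log2 scale, against -0.024 for all tested probe sets. Beyond 1 log2 unit lay 10 members, against 10.4% of all tested probe sets. Arrays of the groups did not overlap in 28 members, against 55.6% of probe sets, and this set is close to but not the same as the called genes, since the arrays overlapped for the called Loxl2. Without Col15a1 and Col23a1, which were below the limit of brightness in 1 of the unstimulated groups, 27 of 38 were called.

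These experiments differ as wholes, so culture, array batch and cell state cannot be told apart in this comparison. In RNA from bulk cells, fewer cells of a type and less RNA per cell cannot be told apart either. Markers of smooth muscle moved with it: 10 of 12 were lower in the thrombin experiment and none higher (24.9% and 21.6% of all tested probe sets). Their summed signal was 16528.2 to 18059.1 on its unstimulated arrays, against 25573.2 to 29141.5 in the TRAP and 25754.9 to 28835.7 in the PTX experiment. Of 5 tested markers of adventitial fibroblasts (8 on the array), 3 were lower and none higher, against the same shares. Their summed signals were 834.2 to 1150.8, 2180.4 to 2199.1 and 2190 to 2450.9 in the same order. Most of each sum came from Gsn (-1.01, adjusted p = 1.92e-05). Pdgfra, a receptor found on fibroblasts, read 48.2 and 71.1 in the thrombin, 371.6 and 390 in the TRAP and 369.3 and 372.7 in the PTX experiment (-2.39, adjusted p = 5.7e-08). Lum (lumican) was lower by -2.21 (adjusted p = 2.62e-06). It read 13.3 and 24 in unstimulated cells of the thrombin, 158.1 and 148.7 in the TRAP and 126.6 and 137.8 in the PTX experiment. The signal of 13.3 lay below the limit of brightness and that of 24 close to it, so the size of its difference is uncertain. Dpt and Pi16 read 11.9 to 19.9 and 22.2 to 39 over the 6 unstimulated arrays. Leukocyte markers summed to 588.7 to 686.5 in the thrombin experiment and 370.4 to 470.5 in the others, most of it from Cd14. Schwann and neural markers summed to 553.9 to 647 against 296.5 to 453, with 1 of 3 tested called (Mbp, higher by 1.71, adjusted p = 0.000298), and the only tested endothelial marker, Tek, was higher by 0.83 (adjusted p = 0.00402). Their part in the result was not tested.

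**Figure D1:**
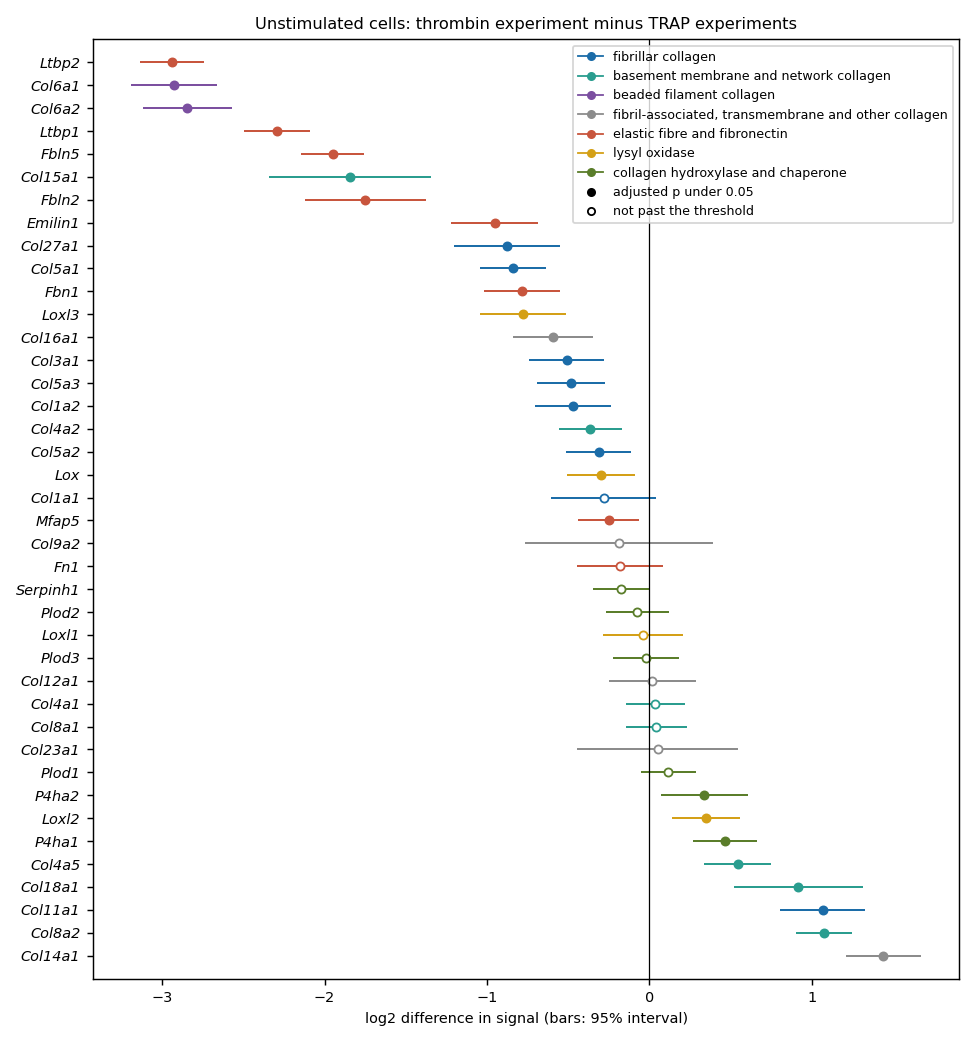
Log2 difference in signal between unstimulated cells of the thrombin experiment and of the TRAP and PTX experiments for the 40 tested genes, with 95% intervals from the limma fit on 6 groups of 2 arrays. Colours mark the role of each gene and filled points an adjusted p under 0.05: 20 filled points lie left of 0, down to -2.94 for Ltbp2, and 8 lie right of it, up to 1.44 for Col14a1.

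Of 8 tested genes of elastic fibres, microfibrils and fibronectin, 7 were lower in the thrombin experiment and none higher (24.9% and 21.6% of all tested probe sets). Their median difference was -1.35. The largest belonged to Ltbp2, a microfibril protein of the latent TGF-beta binding family. Its signal in unstimulated cells was 447 and 483 in the thrombin experiment, 3117 and 3237 in the TRAP experiment and 4502 and 4018 in the PTX experiment. The stimulated arrays read 480.4 and 521, 3872 and 3856 and 3987 and 4721. All arrays of the thrombin experiment were thus several times lower than the other 8, a difference of -2.94 ± 0.088 in unstimulated cells (log2, SE; adjusted p = 6.34e-11). Its relative Ltbp1, which tethers latent TGF-beta, had 434 and 512 in unstimulated cells of the thrombin experiment against 2426 and 2389 in the TRAP and 2147 and 2547 in the PTX experiment. Stimulated cells gave 431 and 447, 2690.5 and 2629 and 2704 and 2484, with no overlap between the thrombin experiment and the rest. The difference in unstimulated cells was -2.29 ± 0.091 (adjusted p = 6.79e-10).

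Fibulins, which help to lay elastin onto microfibrils and basement membranes, shared this pattern. Fbln5 read 717 and 825, 2745 and 3184 and 3132 and 3031 in unstimulated cells of the thrombin, TRAP and PTX experiments, and 832 and 813, 3125 and 3420.3 and 3209.7 and 3274 after stimulation. Fbln2 read 649.9 and 638, 1738 and 1653 and 3143 and 2599, then 638 and 673, 2689 and 1909.5 and 1972 and 3326. The differences were -1.95 ± 0.087 for Fbln5 (adjusted p = 1.86e-09) and -1.75 ± 0.17 for Fbln2 (adjusted p = 2.56e-06), and neither gene had an array of the thrombin experiment within the range of the other 8. Fbn1, which encodes the microfibril protein fibrillin-1, differed less, by -0.78 ± 0.11 (adjusted p = 4.42e-05), and its other probe set gave -0.79. Its arrays are given with the TRAP response. Emilin1, a glycoprotein at the surface of elastic fibres, read 908 and 761, 1268 and 1528 and 1871 and 1914 in unstimulated cells and 758 and 629, 1547 and 1567 and 1400.4 and 1840 after stimulation. Its difference was -0.95 ± 0.12 (adjusted p = 2.62e-05). The microfibril component Mfap5 had 4699.5 and 4794, 5381 and 6179 and 5576 and 5494 in unstimulated cells and 4954 and 4658, 5561 and 6222 and 5791 and 5866 in stimulated cells. That is a difference of -0.25 ± 0.084 (adjusted p = 0.0254), the smallest of the 28 called. Fn1, the fibronectin gene, was not called: its unstimulated arrays read 8808 and 6945, 8082 and 9117 and 9603 and 8713 and overlapped, with a difference of -0.18 ± 0.12 (adjusted p = 0.239). Its stimulated arrays read 7751 and 6772, 8718 and 9028 and 9154 and 11575.

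Type VI collagen forms beaded filaments next to cells, and both of its tested chains were lower in the thrombin experiment. Col6a1 read 49.2 and 44.8 in unstimulated cells of the thrombin experiment against 400.1 and 441 in the TRAP and 483 and 539 in the PTX experiment. Col6a2, its neighbour on the chromosome, read 39.8 and 29.6, 309 and 262 and 406 and 436 in the same order. The stimulated arrays were alike, with 43.7 and 51.1, 356 and 464 and 459 and 427 for Col6a1 and 36.7 and 37.7, 245 and 289.8 and 354 and 318 for Col6a2. Neither chain overlapped between the thrombin experiment and the others, and the differences were -2.93 ± 0.12 and -2.84 ± 0.12 (adjusted p = 8.74e-10 and 1.65e-09). A dimmer Col6a2 probe set gave -0.90 ± 0.22 (adjusted p = 0.00403), the same direction at a smaller size. That probe set read 15.7 and 15.7 on the unstimulated arrays of the thrombin experiment, below the limit of brightness. It was thus tested only through the other arrays and adds no separate support. The third chain of the trimer, Col6a3, was dim on all arrays (4.3 to 28.5).

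**Figure D2:**
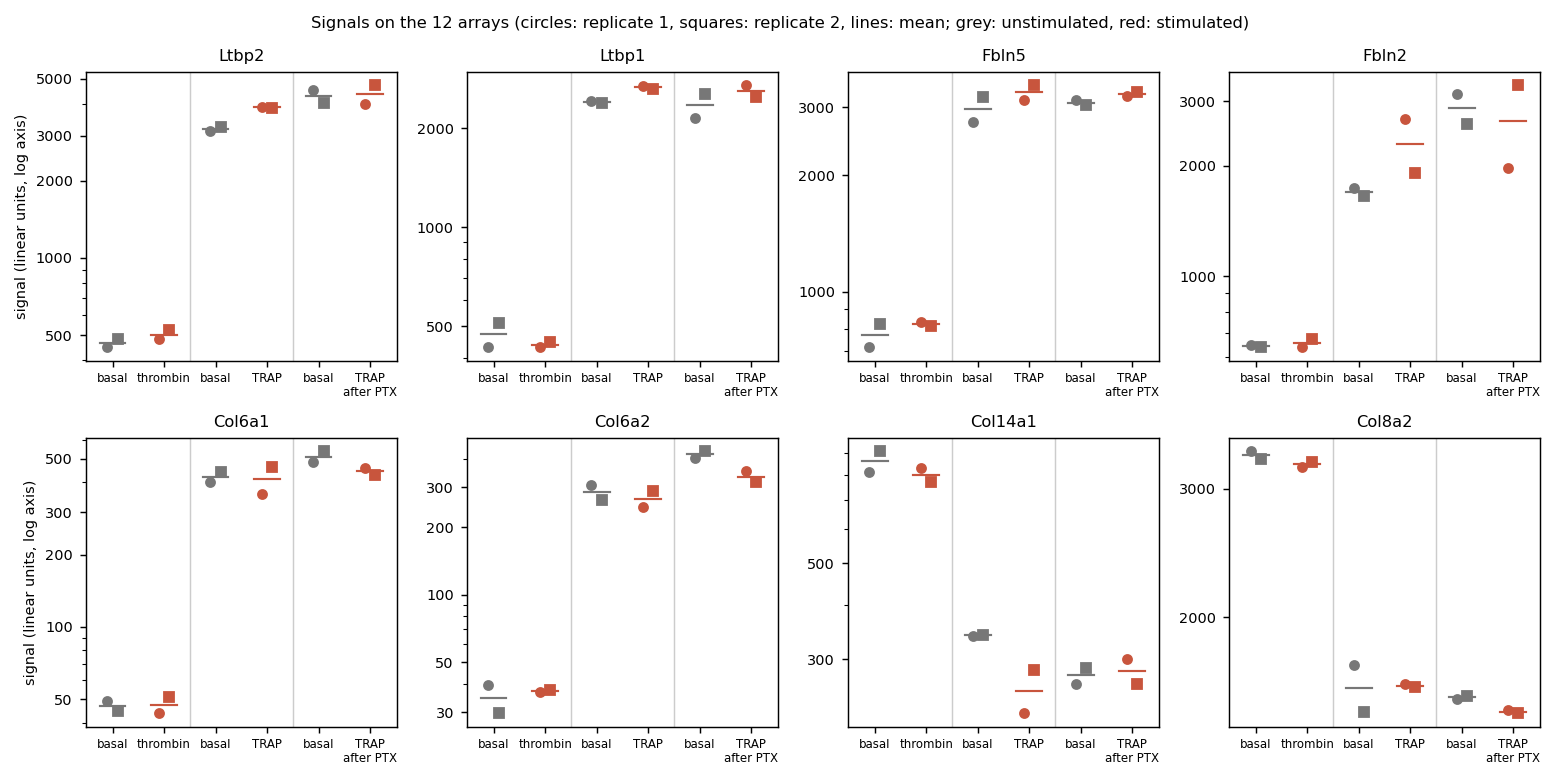
Signal of 8 genes on each of the 12 arrays, on log axes in linear signal units, with circles for replicate 1, squares for replicate 2 and lines for the mean of 2. Ltbp2, Ltbp1, Fbln5, Fbln2, Col6a1 and Col6a2 are lower on all 4 arrays of the thrombin experiment than on the other 8, Col14a1 and Col8a2 are higher, and stimulated groups (red) stay near their own unstimulated groups (grey).

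Fibrillar collagens, which form the tension-bearing fibrils, were lower in the thrombin experiment in 6 of 8 tested genes, and 1 was higher. Over all tested probe sets the shares were 24.9% and 21.6%. The main chains of types I and III were among the brightest probe sets and differed by small amounts. The highest signal of any probe set also differed between unstimulated arrays. It was 11517.8 and 9461.3 in the thrombin, 11750.3 and 12882.3 in the TRAP and 13875.6 and 12159.5 in the PTX experiment. The part of this upper limit in the differences of these chains, and of Col5a2 below, was not tested. Col1a1 read 9877 and 7824 in unstimulated cells of the thrombin experiment, 9469 and 11042 in the TRAP and 12494 and 9986 in the PTX experiment, and its arrays overlapped. Col1a2 read 9111 and 7808, 10785 and 12066 and 12806 and 11206, and Col3a1 8930.1 and 7666, 10665 and 11836 and 13132 and 11592, both without overlap. The difference was -0.28 ± 0.15 for Col1a1 (adjusted p = 0.134), -0.47 ± 0.11 for Col1a2 (adjusted p = 0.0024) and -0.51 ± 0.10 for Col3a1 (adjusted p = 0.00131). Second probe sets gave -0.30 ± 0.11 for Col1a1 (adjusted p = 0.0434) and -0.32 ± 0.13 for Col1a2 (adjusted p = 0.0598), so the 2 chains of type I collagen had close estimates on either side of the threshold. After stimulation Col1a1 read 9497 and 7205, 9593 and 10727 and 10878 and 13935. Col1a2 then read 8429.5 and 7583, 10972 and 11689 and 11932 and 14114, and Col3a1 8285 and 7332, 11377 and 11988 and 12037 and 14194.

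Type V collagen sets the diameter of type I fibrils, and all of its chains were lower in the thrombin experiment. Col5a1 read 2001 and 1769, 3115 and 3280 and 3680 and 3458 in unstimulated cells of the 3 experiments and 1872 and 1762, 3333 and 3757 and 3614 and 4268 in stimulated cells. Its difference of -0.84 ± 0.092 (adjusted p = 7.41e-06) was the largest of the chains, and a second probe set gave -0.75 ± 0.074. Col5a2 read 9228 and 8049.9, 10174 and 10886 and 11546 and 10284, then 8411 and 7937, 10463 and 10499 and 11110.1 and 11906, a difference of -0.31 ± 0.090 (adjusted p = 0.0111). Col5a3 differed by -0.48 ± 0.094 (adjusted p = 0.000874). The fibrillar collagen Col27a1 was near the lower end of the range and differed by -0.88 ± 0.15 (adjusted p = 0.000325). It read 53.5 and 50.9, 120.1 and 102 and 103 and 112 in unstimulated cells. In stimulated cells it read 49.7 and 47.5, 79.9 and 100 and 86.4 and 116. Col11a1, best known from cartilage fibrils, went the other way. It read 1533 and 1348 in unstimulated cells of the thrombin experiment against 643 and 619 in the TRAP and 713 and 739.5 in the PTX experiment, and 1352 and 1322, 719 and 528 and 551 and 689.9 after stimulation. Its difference of 1.07 ± 0.12 (adjusted p = 8.05e-06) was matched by a second probe set at 1.26 ± 0.20.

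Network and basement membrane collagens were split, with 3 of 7 tested genes higher in the thrombin experiment and 2 lower. The matching shares of all tested probe sets were 21.6% and 24.9%. Col8a2, a chain of the short-chain networks of vessels and the cornea, read 3382 and 3296 in unstimulated cells of the thrombin experiment, 1721 and 1484 in the TRAP and 1546 and 1561 in the PTX experiment, and 3216 and 3269, 1619 and 1606 and 1492 and 1478 after stimulation. It was higher there by 1.08 ± 0.077 (adjusted p = 1.43e-07) with no overlap, while its partner chain Col8a1 differed by 0.044 ± 0.085 (adjusted p = 0.705). The precursors of 2 matrix fragments with anti-angiogenic activity, types XVIII and XV, differed in opposite directions. Col18a1 had 247 and 184, 92.7 and 120.3 and 109.8 and 99.2 in unstimulated and 214 and 153, 95.9 and 149 and 108 and 103 in stimulated cells, and was higher in the thrombin experiment by 0.92 ± 0.18 (adjusted p = 0.000971). Col15a1 had 10.9 and 21, 89 and 116 and 77.2 and 112, then 11.8 and 31.2, 95.8 and 122 and 139 and 116, and was lower by -1.85 ± 0.23 (adjusted p = 2.17e-05). Both unstimulated arrays of the thrombin experiment lay below the limit of brightness, so Col15a1 was tested only through the other arrays and the size of its difference is uncertain (-2.39 with a pseudocount of 4 and -1.02 with 64). The second probe sets of Col18a1 and Col15a1 gave 1.05 ± 0.19 and -1.08 ± 0.25. That of Col15a1 read 13.4 and 2.1 on the unstimulated arrays of the thrombin experiment. It was thus also below the limit there and adds no separate support.

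The type IV chains of the basement membrane did not move as a unit. Col4a5 read 4298 and 4972 in unstimulated cells of the thrombin experiment, 3055 and 3028 and 3362 and 3226 in the others, and 4888 and 4743, 3375 and 3073 and 3017 and 3639.7 after stimulation, and was higher by 0.54 ± 0.093 (adjusted p = 0.000322). Col4a2 read 1196 and 1352, 1496 and 1425 and 1995 and 1701, then 1438 and 1355, 1573 and 1647 and 1781 and 1926, and was lower by -0.36 ± 0.088 (adjusted p = 0.004). Col4a1, whose product joins that of Col4a2 in 1 trimer, differed by 0.038 ± 0.081 (adjusted p = 0.733), with a 95% interval of -0.14 to 0.21. The difference between these chains was not tested.

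Among collagens that decorate fibrils or span the membrane, 1 of 5 tested was higher and 1 lower. That is near the 21.6% and 24.9% of all tested probe sets. Col14a1, a fibril-associated collagen, read 813 and 908 in unstimulated cells of the thrombin experiment, 339.9 and 342 in the TRAP and 263 and 287 in the PTX experiment, and 830 and 771, 225 and 283 and 301 and 262 after stimulation. Its difference of 1.44 ± 0.11 (adjusted p = 1.69e-07) was the largest rise among the members, and a second probe set gave 1.22 ± 0.18. Col16a1, of the same family, read 394 and 537, 669 and 593 and 785 and 779, then 552 and 507, 706 and 686 and 651 and 749, and was lower by -0.59 ± 0.11 (adjusted p = 0.000736). Col12a1, also of this family, was not called on its brightest probe set (0.019 ± 0.12), but a second one gave 0.44 ± 0.16 (adjusted p = 0.0356). Col9a2 and Col23a1 lay just above the limit of brightness and were not called.

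The lysyl oxidases, which crosslink collagen and elastin, differed among themselves. Lox, the founding member, read 6049.8 and 6127 in unstimulated cells of the thrombin experiment, 6894 and 7672 in the TRAP and 7900.4 and 7528 in the PTX experiment, and 6630.3 and 6078, 8049 and 6697 and 8269 and 9007 after stimulation. It was lower by -0.30 ± 0.094 (adjusted p = 0.0185), and a second probe set gave -0.40 ± 0.093. Loxl3 read 219 and 267, 448 and 458 and 452 and 358 in unstimulated and 205 and 222, 367 and 462 and 428 and 419 in stimulated cells, and was lower by -0.78 ± 0.12 (adjusted p = 0.000141). Loxl2 was higher by 0.35 ± 0.095 (adjusted p = 0.00783), with 0.71 ± 0.12 on its other probe set, and Loxl1, which is needed for elastic fibre upkeep, differed by -0.041 ± 0.11 (adjusted p = 0.792).

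Of the 6 genes for collagen hydroxylases and the collagen chaperone, 2 were higher in the thrombin experiment and none lower (21.6% and 24.9% of probe sets). Both encode catalytic subunits of prolyl 4-hydroxylase, which makes the triple helix stable. P4ha1 read 5784 and 4897 in unstimulated cells of the thrombin experiment, 3486 and 3549 in the TRAP and 4375 and 4051 in the PTX experiment, and 5269 and 4754, 4101 and 4067 and 3968 and 4298 after stimulation. P4ha2 read 2319 and 2229, 1464 and 1472 and 2218 and 2161, then 2116 and 1965, 2229 and 1732 and 1570.1 and 2195. The differences were 0.47 ± 0.088 for P4ha1 (adjusted p = 0.000702) and 0.34 ± 0.12 for P4ha2 (adjusted p = 0.0356). A dim second P4ha2 probe set gave 0.056 ± 0.19 (adjusted p = 0.835). For P4ha2 the PTX arrays, at 2218 and 2161, lay close to those of the thrombin experiment, and its call was lost without each of the 6 unstimulated arrays in turn (adjusted p up to 0.159). The lysyl hydroxylases Plod1, Plod2 and Plod3 and the chaperone gene Serpinh1 were not called, with differences from -0.17 for Serpinh1 to 0.12 for Plod1.

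The comparison was repeated on the 6 stimulated arrays, which share no sample with the unstimulated ones but come from the same experiments. It called 29 of the 40 members, against 43.7% of all tested probe sets. Of these, 26 were called in the same direction in unstimulated cells, 92.9% of the basal calls and 89.7% of the stimulated ones. All 28 genes called in unstimulated cells had the same sign in stimulated cells. The calls that were not shared were Loxl2 and P4ha2 on the unstimulated side and Col1a1 (-0.43), Fn1 (-0.40) and Serpinh1 (-0.29) on the stimulated side. The scale of the arrays bears on the small differences. Centring each array on its median instead of its trimmed mean adds 0.20 to every log2 difference in this comparison. It then called 23 members, 9 higher and 14 lower (39.1% higher, against 28.6% as scaled by the authors), and the share of higher calls over all probe sets went from 46.4% to 68.6%. Under it Col3a1, Col1a2, Col5a2, Col4a2, Lox and Mfap5 were no longer called but kept their sign, and Plod1 was called at 0.32. The genes with differences beyond 0.5 other than Col3a1 kept their calls. Quantile normalization ended the calls of Col5a2, Lox and Mfap5. Single arrays also decided some small differences. Lox and Mfap5 lost their calls without either unstimulated thrombin array and without replicate 2 of unstimulated TRAP (adjusted p up to 0.0855 and 0.11). Without replicate 1 of unstimulated thrombin, Loxl2 (0.27, adjusted p = 0.0933) and Col4a2 (-0.28, adjusted p = 0.0609) were not called, nor Col5a2 without replicate 2 (-0.21, adjusted p = 0.135).

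Promoter sequences are shown for members with some of the largest differences and for a promoter that 2 chains share. They are the 150 bases before the RefSeq transcription start (rat build GRCr8), read 5′ to 3′ on the strand of the gene, and capitals mark matches to the motifs below on either strand. Ltbp2, Col6a1 and Ltbp1 were lower in the thrombin experiment, and Col8a2 and Col11a1 higher.
Ltbp2: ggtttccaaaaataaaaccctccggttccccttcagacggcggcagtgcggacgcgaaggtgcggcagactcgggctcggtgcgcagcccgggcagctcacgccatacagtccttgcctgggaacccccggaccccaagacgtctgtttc
Col6a1: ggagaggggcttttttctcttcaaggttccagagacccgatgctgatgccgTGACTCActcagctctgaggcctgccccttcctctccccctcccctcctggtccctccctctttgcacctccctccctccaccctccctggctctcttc
Ltbp1: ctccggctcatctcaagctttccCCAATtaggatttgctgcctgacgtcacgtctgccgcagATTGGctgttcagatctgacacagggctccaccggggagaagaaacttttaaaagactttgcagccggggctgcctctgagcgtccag
Col8a2: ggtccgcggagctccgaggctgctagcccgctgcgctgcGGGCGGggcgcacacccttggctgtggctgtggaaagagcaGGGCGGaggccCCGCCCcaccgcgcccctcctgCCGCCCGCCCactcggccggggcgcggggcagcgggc
Col11a1: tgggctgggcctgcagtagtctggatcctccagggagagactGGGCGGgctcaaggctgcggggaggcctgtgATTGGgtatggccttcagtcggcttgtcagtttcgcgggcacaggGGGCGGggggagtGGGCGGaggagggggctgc
The windows lie at chr6:110257299-110257448 (minus strand) for Ltbp2, chr20:11905540-11905689 (plus strand) for Col6a1, chr6:26177302-26177451 (minus strand) for Ltbp1, chr5:143870619-143870768 (plus strand) for Col8a2 and chr2:204508986-204509135 (plus strand) for Col11a1. Capitals mark the AP-1 motif TGAGTCA, read here as its reverse complement TGACTCA, in Col6a1. They also mark the CCAAT motif in Ltbp1 and Col11a1, and the GC box GGGCGG in Col8a2 and Col11a1. These 150 bases of Ltbp2 hold no match. Col4a1 and Col4a2 start back to back, 76 bases apart, at chr16:84885521-84885596 (plus strand). Their shared stretch, on the strand of Col4a1, holds 1 GC box.
Col4a1 and Col4a2: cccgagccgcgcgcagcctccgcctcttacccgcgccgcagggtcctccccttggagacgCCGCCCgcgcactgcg
From this shared start region Col4a2 was called lower in the thrombin experiment and Col4a1 was not, as given above.

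RefSeq windows of 300 bases around the start (250 before to 50 after) were matched for 46 of the 61 members, 31 of them tested. The GC box GGGCGG occurred on either strand in 27 of the 46 (58.7%) and in 21 of the 31 tested (67.7%), against 33.1% of the 33469 windows of all genes. CCAAT occurred in 12 (26.1%, against 37.5% of all), TATAAA in 4 (8.7%, against 14.2%) and TGAGTCA in 1 (2.17%, against 4.63%). The CArG box, the binding sequence of serum response factor, was in none of them, against 1.64% of all windows. A match describes these letters only, and no binding was measured.

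After 120 min of stimulation, collagen and elastic fibre transcripts had changed little. Thrombin called none of the 40 tested members, against 4.74% of all tested probe sets. The members' changes ran from -0.26 to 0.36, with a median of -0.037 against -0.036 for all probe sets, and 1 member had an unadjusted p under 0.05. That was Col12a1, at 0.30 ± 0.14 (adjusted p = 0.275). A dimmer Col12a1 probe set gave 0.64 ± 0.18 with thrombin (adjusted p = 0.0665), without overlap, and 0.45 ± 0.18 with TRAP (adjusted p = 0.229). Another, dimmer still, gave 0.49 ± 0.41 with thrombin (adjusted p = 0.594). For 39 of the 40 the 95% interval lay within 1 log2 unit of 0. The arrays of the thrombin-treated and control cells did not overlap in 10 members, against 47.4% of probe sets.

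**Figure D3:**
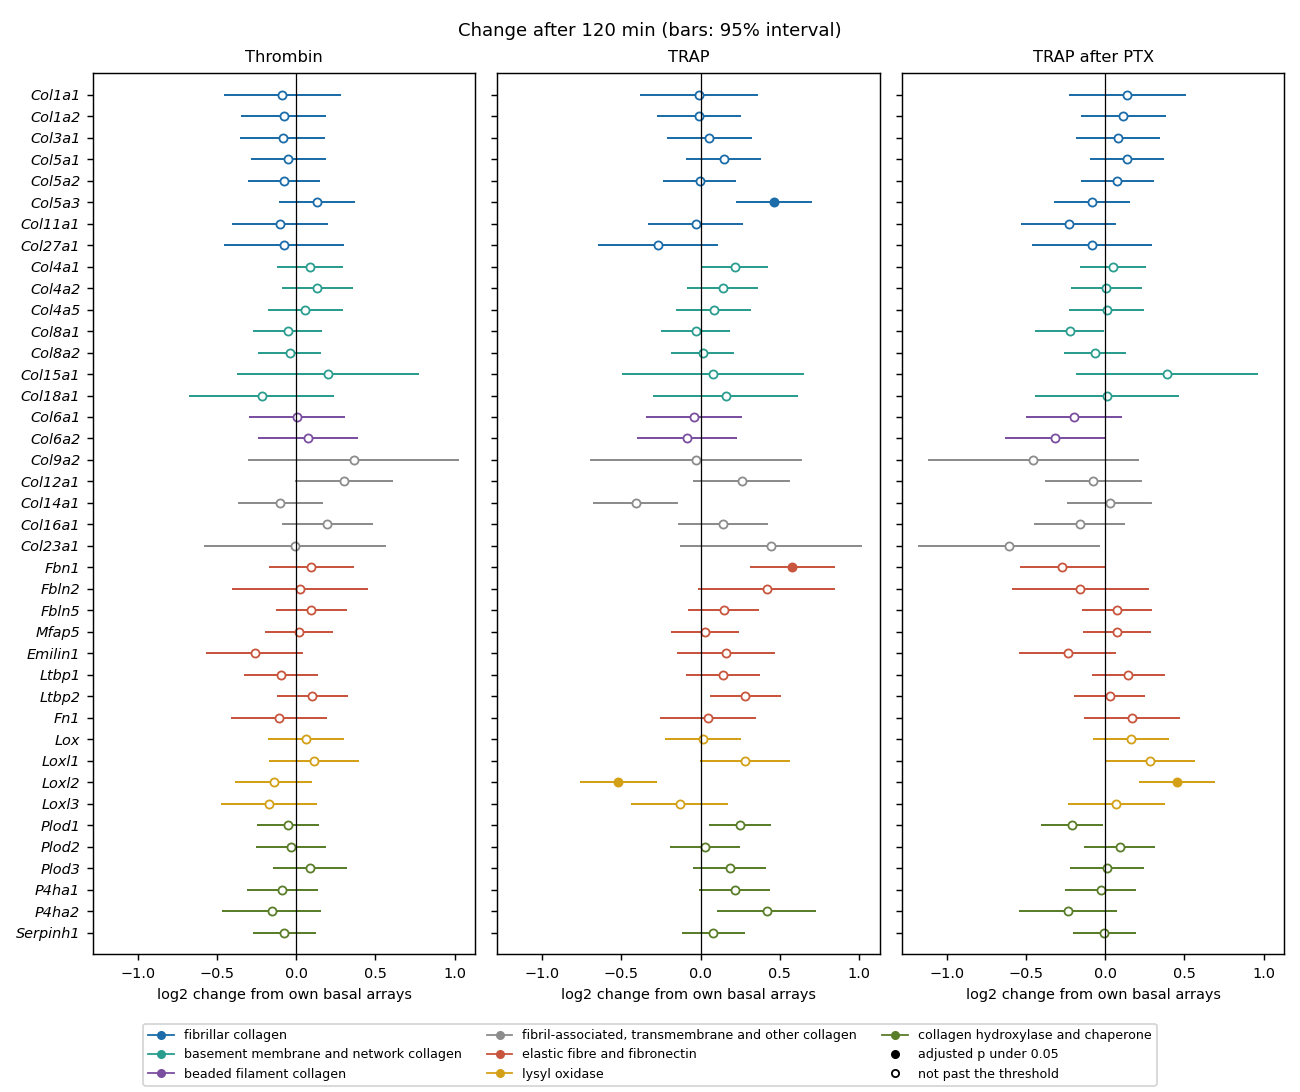
Log2 change of the 40 tested genes 120 min after thrombin, TRAP, or TRAP after PTX, each against the unstimulated arrays of its own experiment, with 95% intervals from the limma fit (2 arrays a group). Filled points passed an adjusted p of 0.05: none for thrombin, Fbn1, Col5a3 and Loxl2 for TRAP, and Loxl2 for TRAP after PTX, with opposite signs for Loxl2.

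For the highest-signal collagens the interval of the signal is given. Col1a1 read 7824.5 and 13934.9 on the arrays whose highest signal of any probe set was 9461.3 and 15129.7. How far signals so near the top of an array follow the transcript was not tested. Thrombin changed Col1a1 by -0.088 ± 0.17, with a 95% interval of -0.45 to 0.28, and Col3a1 by -0.086 ± 0.12 (-0.35 to 0.17). The corresponding values for TRAP were -0.011 ± 0.17 (-0.38 to 0.35) and 0.056 ± 0.12 (-0.20 to 0.32), and for TRAP after PTX 0.14 ± 0.17 (-0.22 to 0.50) and 0.083 ± 0.12 (-0.18 to 0.34). Col1a2 changed by -0.077, -0.010 and 0.12 with the same stimuli. Fn1 changed by -0.11 ± 0.14, 0.048 ± 0.14 and 0.17 ± 0.14. Lox changed by 0.060 ± 0.11, 0.014 ± 0.11 and 0.16 ± 0.11. None of these changes passed the test.

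TRAP called 3 of the 40 members (7.5%, against 3.9% of all tested probe sets), 2 higher and 1 lower (1.84% and 2.07% of probe sets). The median change was 0.080, against -0.035 for all probe sets, and 9 members had an unadjusted p under 0.05. Stimulated and unstimulated arrays did not overlap in 22 members, 19 of them higher, against 48.6% of probe sets in either direction. The share over all probe sets is not given by direction or for unadjusted p.

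Fbn1, the fibrillin gene, rose after TRAP. Its brightest probe set went from 2826 and 2188 to 3819.9 and 3630.1, a change of 0.58 ± 0.12 (adjusted p = 0.0161). In the PTX experiment it started at 3310.1 and 3538 and went to 2802 and 2861, and in the thrombin experiment from 1625 and 1751 to 1641 and 1984. So its unstimulated PTX arrays already stood near its TRAP-stimulated arrays, and TRAP after PTX gave -0.27 ± 0.12 (adjusted p = 0.276). Its other probe set read 2090.3 and 2192 before and 2152 and 1983 after TRAP, a change of -0.051 ± 0.084 (adjusted p = 0.844). The rise was therefore seen with 1 of 2 probe sets. Leaving out single arrays gave 0.40 to 0.76 for the brightest probe set, and the call was lost without replicate 2 of unstimulated TRAP (0.40, adjusted p = 0.198) and without either TRAP-stimulated array (adjusted p = 0.0962 and 0.068). It was also lost with quantile normalization (0.49, adjusted p = 0.0694).

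Col5a3, a minor chain of type V collagen with a single probe set, also rose after TRAP. It went from 621 and 508 to 758 and 804 in the TRAP experiment, from 696 and 742 to 638 and 719 after PTX, and from 459 and 441 to 498 and 489.6 with thrombin. Both TRAP arrays lay above both controls, by 0.47 ± 0.11 (adjusted p = 0.0285), while the arrays overlapped in the PTX experiment. The change ran from 0.32 to 0.61 without single arrays, and the call was lost in the same 3 cases (adjusted p = 0.294, 0.0755 and 0.162). It was also lost with the sets high and low in Saa3 as a block (0.44, adjusted p = 0.0626). Without intensity trend in the fit, TRAP called no member.

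Loxl2, a lysyl oxidase that crosslinks type IV collagen, fell after TRAP and rose after TRAP in cells with PTX, on its brightest probe set. The unstimulated and stimulated signals were 1969 and 1772 and 1404 and 1201 in the TRAP experiment, 1339.7 and 1453 and 1827 and 2011 in the PTX experiment, and 2184 and 1950 and 1975 and 1766 in the thrombin experiment. The groups did not overlap in the TRAP or PTX experiment and overlapped with thrombin. Its change was -0.52 ± 0.11 with TRAP (adjusted p = 0.016) and 0.45 ± 0.11 with TRAP after PTX (adjusted p = 0.0437), which was the only member called of 40 there (2.5%, against 2.71% of all tested probe sets). The difference between those responses was 0.97 ± 0.15 (adjusted p = 0.0328), and Loxl2 was the only member among the 24 probe sets called in that comparison (0.129%), all of them higher. The unstimulated arrays of these experiments themselves differed by -0.42 ± 0.11 for PTX minus TRAP (adjusted p = 0.149). Compared directly, TRAP-stimulated cells with PTX were 0.56 above those without (adjusted p = 0.0951).

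The other Loxl2 probe set did not show this pattern. It read 514 and 432 and 530.5 and 546 before and after TRAP, 422 and 574 and 440 and 491 in the PTX experiment, and 723 and 879 and 887 and 849.6 with thrombin. The changes were 0.19 ± 0.14 with TRAP and -0.080 ± 0.14 with TRAP after PTX, and the difference between them -0.27 ± 0.20 (adjusted p = 0.798), each opposite in sign to the brightest probe set. Leaving out single arrays, the brightest probe set kept the difference at 0.86 to 1.08 (adjusted p = 0.0208 to 0.193 over the 12 cases). The call held in 3 of the 12, without either unstimulated thrombin array or without TRAP replicate 1 (adjusted p = 0.0375, 0.038 and 0.0208). Its call after TRAP was lost without either unstimulated TRAP array and without TRAP replicate 2 (adjusted p up to 0.182), as well as with median centring (-0.43, adjusted p = 0.0733), and its call for TRAP after PTX in 8 of 12 cases (adjusted p up to 0.2).

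**Figure D4:**
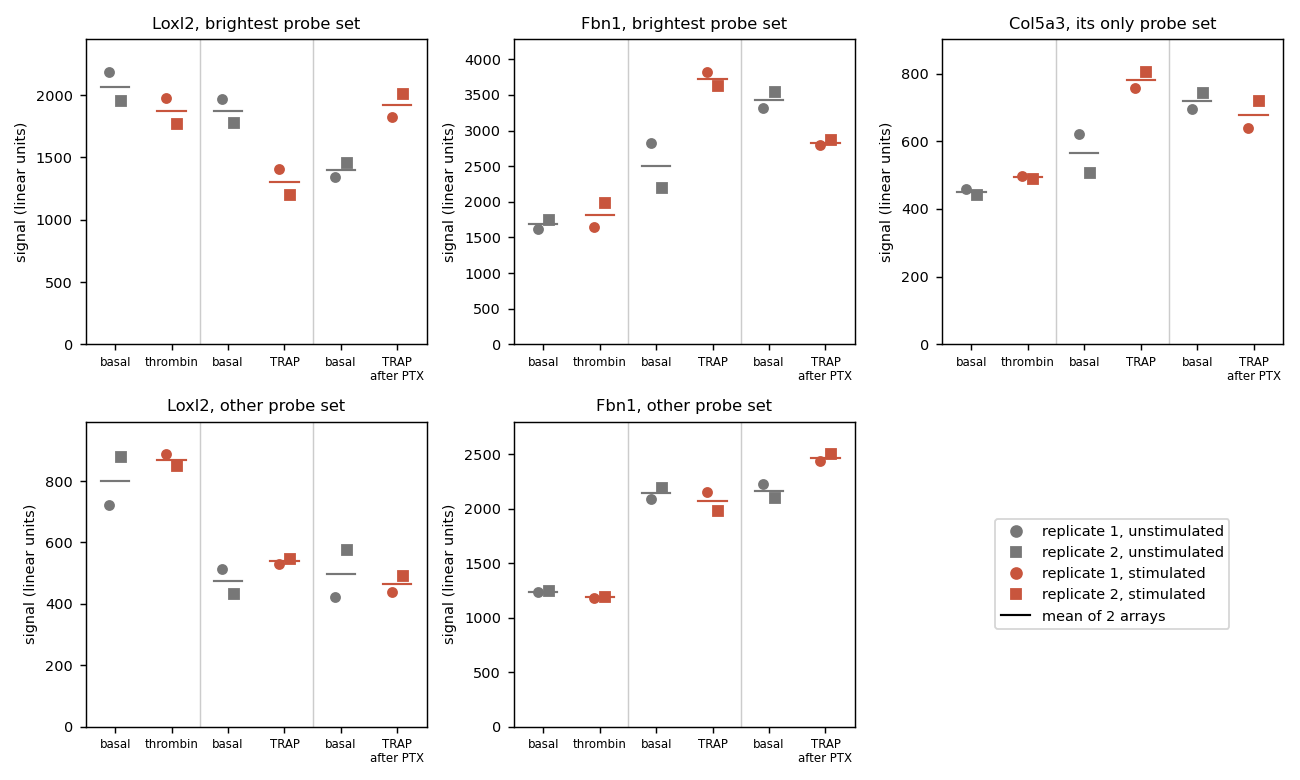
Signal of the 3 genes called after TRAP on each array, in linear units from 0, with circles for replicate 1, squares for replicate 2 and lines for the mean of 2. The upper row shows the probe sets that represent the genes and the lower row the other probe sets of Loxl2 and Fbn1, where the TRAP change is 0.19 and -0.051 in place of -0.52 and 0.58.

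With TRAP after PTX, 7 members had an unadjusted p under 0.05, the median change was 0.0090 against -0.038 for all probe sets, and arrays did not overlap in 15 members against 45.2% of probe sets. Averaged over the 3 stimuli, no member was called (4 had an unadjusted p under 0.05), against 13.2% of all tested probe sets. The smallest adjusted p there belonged to Loxl1, at 0.23 ± 0.075 (adjusted p = 0.0628). It was called in the fit with replicate blocks (adjusted p = 0.0186). The members' average changes lay between -0.16 and 0.23. The thrombin response minus the TRAP response gave no call among the members (5 unadjusted p under 0.05), against 0.532% of probe sets. Fbn1 gave -0.48 ± 0.17 in that comparison (adjusted p = 0.312) and Col5a3 -0.34 ± 0.15 (adjusted p = 0.485), so neither rise was shown to differ between stimuli.

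Unstimulated cells of the PTX and TRAP experiments did not differ in any member past the threshold, against 0.043% of probe sets called. The median difference was 0.13 (PTX minus TRAP), against -0.0028 for all probe sets. Arrays did not overlap in 21 members, against 43.1% of probe sets in either direction. Of the 21, 19 were higher in the PTX experiment, and 15 members had an unadjusted p under 0.05. For these last counts no share over all probe sets is given, so they do not set the members apart. Plod1, a lysyl hydroxylase, had the smallest adjusted p: 1278 and 1224 in the TRAP and 1698 and 1684 in the PTX experiment, a difference of 0.43 ± 0.088 (adjusted p = 0.102). In the fit of these 4 arrays alone P4ha2 (0.57, adjusted p = 0.0198) and Fbln2 (0.75, adjusted p = 0.0147) were called.

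The same contrast separates the 2 sets of arrays described above, high and low in Saa3. Over all 8 arrays of these experiments, 6 of the 40 members (15%, against 3.32% of all tested probe sets) were higher on every array of the high set than on any of the low set, and none were lower (against 3.8%). P4ha2 ran from 2161.1 to 2228.6 on the arrays high in Saa3 and from 1464 to 1731.7 on the others. Fbln2 ran from 2599.3 to 3326.4 and from 1653.4 to 1971.5. These ranges include the stimulated arrays, so the place of those arrays follows from how the members were picked and adds no support. P4ha2 read 2229 on TRAP replicate 1 (high set) and 1732 on replicate 2 (low set). It read 1570.1 and 2195 on TRAP after PTX replicates 1 (low set) and 2 (high set). The other members with this separation were Col11a1, Col4a5, Col16a1 and Plod1, with gaps of 0.16 to 0.29 between the means of the sets. Without the 2 stimulated arrays whose controls were in the opposite set, the TRAP changes were 0.54 for Fbn1 (adjusted p = 0.121), 0.51 for Col5a3 (adjusted p = 0.0772) and -0.63 for Loxl2 (adjusted p = 0.0245). For Loxl2, TRAP after PTX then gave 0.52 (adjusted p = 0.0975) and the difference between the responses was 1.15 (adjusted p = 0.0583).

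Genes that process or partner these proteins gave no calls with single stimuli. Over all tested probe sets the shares called were 4.74% with thrombin, 3.9% with TRAP, 2.71% with TRAP after PTX and 13.2% in the average. Of 18 tested genes for procollagen processing and folding, such as the peptidases that trim procollagen, none was called with any stimulus, and the same was true of 10 further elastic fibre partners. Of 29 tested proteoglycans and matrix glycoproteins none was called in a single response, while in the average Has2, a hyaluronan synthase, rose by 0.57 and Spp1 (osteopontin) by 0.25, and Mgp, an inhibitor of calcification, fell by 0.41 (3 of 29, against the 13.2%). In the list of 23 TGF-beta signalling and related genes, thrombin called 3 higher and 1 lower, TRAP 3 and 1, and TRAP after PTX 3 and 2, against 4.74%, 3.9% and 2.71% of all probe sets. Bambi, a decoy receptor of the TGF-beta family, changed by -2.91, -1.44 and -1.87 with the 3 stimuli, and Skil, a repressor of Smad signalling, rose by 0.50, 0.65 and 0.52. Inhba, a chain of activin, rose by 0.99 with thrombin, and Tgif1, another repressor, by 1.09 with TRAP and 0.78 after PTX.

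Receptors and turnover genes gave a few calls, to be read against the same 4.74%, 3.9% and 2.71%. Of 13 tested collagen and fibronectin receptors, thrombin raised the fibronectin receptor chain Itga5 by 0.75 and Sdc1 by 0.45. With TRAP, Sdc4 rose by 1.02 and the collagen receptor chain Itga1 fell by 0.93, and TRAP after PTX raised Sdc4 by 0.89. Of 14 tested turnover genes, the protease gene Adamts1 rose by 0.93 with thrombin, 0.53 with TRAP and 0.45 after PTX, and the metalloproteinase inhibitor Timp1 by 0.44 with thrombin and 0.56 with TRAP.

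Each of these lists held genes that differed between unstimulated cells. Lower in the thrombin experiment were 7 of 18 processing genes, 4 of 10 elastic fibre partners, 12 of 29 proteoglycans and glycoproteins, 10 of 23 TGF-beta genes, 8 of 13 receptors and 8 of 14 turnover genes. Higher were 2, 2, 8, 6, 3 and 2 in the same order. The 2 higher elastic fibre partners were Ltbp4, by 0.58, and Thsd4, by 0.90. Over all tested probe sets 24.9% were lower and 21.6% higher. The proteoglycan genes Acan and Vcan differed by -4.46 and -2.51 and the glycoprotein gene Tnc by -2.97.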

How the data were processed

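RNA from 12 samples of cultured neonatal rat aortic smooth muscle cells (6 groups of 2, taken from the labels) was hybridised to 1-colour Affymetrix arrays. Each deposited value is a linear intensity per probe set, for which the submitters' processing notes name GCOS 1.4. The genome build is not given in the sources used here. Detection calls were not used here. Probe sets were named from the platform annotation, and all 61 members matched the rat RefSeq gene table by Entrez number (0 symbols changed).

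Signals were analysed as log2(signal + 16), which understates changes of dim genes. Control probe sets (57) and those below the 40th percentile of mean log2 signal were left out, which kept 18625. One limma 3.58.1 model (R 4.3.3, lmFit, eBayes with intensity trend, 6 residual and 7.50 prior degrees of freedom) covered all 12 arrays. Tests were 2-sided with Benjamini-Hochberg adjustment over all kept probe sets and a threshold of 0.05, and it was checked on simulated data. Errors are standard errors of the fit on the log2 scale. Counts of members with an unadjusted p under 0.05 have no share over all probe sets beside them. Pairing by replicate number was checked from the correlation of deviations (0.134, 0.104 and 0.022 in the thrombin, TRAP and PTX experiments), which does not establish pairs.

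The members, roles and gene lists were chosen with earlier results of these data known. Members past the threshold in any of 8 contrasts, and Col1a1, Col1a2, Col3a1, Eln, Fn1 and Lox, are given in full. Listed genes outside the members are named where called, at most 5 a list. Genes that mark the 2 sets of arrays, members that separate them and single members named for unadjusted values were chosen after their values were seen. Alternatives covered the pseudocount, the filter, the scaling, no trend, a replicate block, the compared arrays alone, second probe sets and each array left out. Stimulated in place of unstimulated arrays, array sets as a block and the fit without 2 arrays outside their set were chosen after seeing the data. With 1 array left in a group, it is assumed to vary like the others.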

Additional observations from a re-analysis of the deposited data

Results flagged for a closer look

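Loxl2 was singled out because its response to TRAP differed between cells with and without PTX by a test of the difference itself, at 0.97 on the log2 scale (limma, adjusted p = 0.0328). The response was -0.52 without PTX and 0.45 after PTX, and the second Loxl2 probe set gave -0.27 for the same difference (adjusted p = 0.798).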

How the results depend on the processing

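The count of 28 members that differed between unstimulated cells of the thrombin and other experiments stayed within 1.5 times under every alternative run (23 to 29, and 23 to 28 without single arrays), and no called gene changed sign. The counts after stimulation were small and moved easily. TRAP called 3 members, but 0 without intensity trend, 1 with second probe sets, 1 without the 2 stimulated arrays whose controls were in the opposite set, and 0 to 3 without single arrays (0 without unstimulated or stimulated TRAP replicate 2, 1 without stimulated TRAP replicate 1). TRAP after PTX called 1, but 0 without a filter, with quantile normalization, without trend, with the compared arrays alone, with second probe sets or without those 2 arrays, and 0 to 1 without single arrays. The PTX effect called 1, but 0 without a filter, without trend, with second probe sets or without those 2 arrays, and 0 to 1 without single arrays. The average called 0, but 1 with median centring (Col5a3, 0.24), 1 with the replicate block and 1 with array sets as a block (Loxl1, 0.23), and 0 to 1 without single arrays. PTX against TRAP controls called 0, but 2 with these arrays alone. Second probe sets reversed Fbn1 after TRAP (-0.051) and Loxl2 after TRAP (0.19), after PTX (-0.080) and in the PTX effect (-0.27), and the cause was not tested. The replicate block moved no other count of members: 0 for thrombin, 3 for TRAP and 1 for TRAP after PTX. Groups of 2 arrays limit the precision, and genes near background, Eln among them, have no measured change.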
